A study of Mus musculus with 4 samples.

Results

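Cholesterol is made in nearly every animal cell by a chain of enzymes that begins with acetyl-CoA, and the genes of this chain are switched on together when the sterol content of the cell falls. The 8 genes described here were named by their known roles in this programme, and no measured value enters the rule. The choice was nevertheless made with earlier results of these data known. They are the enzyme genes Hmgcs1, Mvd, Idi1, Fdps, Fdft1, Sqle and Lss, and Srebf2, which encodes the transcription factor that controls them. They were matched by symbol and are 8 of the 55573 genes in the table. Of the 8, 5 had a level high enough to be tested (at least 1 RPKM, reads per kilobase of gene length after scaling of the libraries, as a mean over all 4) beside 11363 genes in all.

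Ribosome profiling (Ribo-seq), which counts the mRNA fragments covered by ribosomes, was performed on proliferating primary mouse myoblasts at day 2 of culture, to ask which mRNAs need the translation factor eIF5A. Cells were taken from the hind-limb muscle of 3-week-old mice and grown in DMEM with 10% fetal bovine serum and FGF, with 2 libraries from wild type (WT) and 2 labelled eIF5A knockout (KO). The KO mice carried Pax7-CreERT2/+ and eIF5A f/f and had received tamoxifen, so that Cre acts only in cells that express Pax7, the marker of muscle stem cells, and their descendants. The WT mice were littermates, whose genotype the study gives in one place as Pax7-CreERT2/+ and in another as Pax7+/+ with eIF5A f/f. All cells were treated with cycloheximide at 100 μg/ml before lysis, for 10 min by the sample labels and for 1 min by the design text. The labels do not say that the 2 libraries of a group came from separate mice or cultures, so the spread between them may be technical. A footprint level reflects both the amount of an mRNA and how heavily it is translated, and mRNA levels were not used here.

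Hmgcs1 encodes the enzyme that joins acetoacetyl-CoA and acetyl-CoA into HMG-CoA early in the pathway. Mvd and Idi1 complete the making of the 5-carbon isoprene units, Fdps joins these into farnesyl diphosphate, and Fdft1 joins farnesyl units into squalene, the first step committed to sterols. Sqle oxidises squalene and Lss folds the product into the first sterol ring system. Srebf2 encodes SREBP-2, a factor held in the endoplasmic reticulum membrane while sterols are plentiful and cut free to enter the nucleus when they are scarce, where it binds sterol regulatory elements in the promoters of these genes and of its own.

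The promoters of Hmgcs1 and Srebf2 are shown because these were the members whose WT and KO values did not overlap. RefSeq (GRCm38.p6) had a promoter entry for 5 of the 8 members, which were Hmgcs1, Mvd, Idi1, Lss and Srebf2. The stretches below run 5′ to 3′ on the + strand up to the base before the earlier of the RefSeq start and the gene start of the table, at chr13:119690101-119690350 for Hmgcs1 and chr15:82147019-82147180 for Srebf2. Capitals mark matches to TCACNCCA, a core of the sterol regulatory element, and to CCAAT, the box that SREBP's partner NF-Y binds, which reads ATTGG where it lies on the opposite strand.
Hmgcs1: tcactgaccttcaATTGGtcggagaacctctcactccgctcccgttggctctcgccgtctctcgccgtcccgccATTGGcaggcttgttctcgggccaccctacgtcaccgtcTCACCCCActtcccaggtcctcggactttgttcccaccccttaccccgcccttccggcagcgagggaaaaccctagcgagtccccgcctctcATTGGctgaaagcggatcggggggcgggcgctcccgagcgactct
Srebf2: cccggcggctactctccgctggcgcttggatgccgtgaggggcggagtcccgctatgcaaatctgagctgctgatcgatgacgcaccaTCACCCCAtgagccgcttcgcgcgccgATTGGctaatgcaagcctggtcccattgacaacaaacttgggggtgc
Both held the same letters, TCACCCCA, at position -137 from the RefSeq start in Hmgcs1 and at -162 in Srebf2. Searched on both strands in the 250 bases before the start, TCACNCCA was in 3.67% of 32851 mouse promoters, and its letters were chosen after these promoters had been read. It was not in the windows of Mvd, Idi1 or Lss. CCAAT was in all 5 windows and in 33.9% of all promoters, with 3 copies in Hmgcs1, 2 in Mvd, 2 in Idi1, 1 in Lss and 1 in Srebf2.

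The libraries were shallow, and this sets how much can be said of each gene. They held 642429 to 704006 reads assigned to genes, of which protein-coding genes took 33.9% to 41.5% in WT and 59.2% to 65.4% in KO. A tested gene had a median of 54 reads over the 4 libraries together. Eif5a, the targeted gene, had 34.9 and 65.2 RPKM in WT replicates 1 and 2 and 60.3 and 59.4 in KO replicates 1 and 2, a log2 difference of 0.32 (95% interval -0.87 to 1.51, limma adjusted p = 0.839). Its footprint level was thus not lower in the libraries labelled KO, and it gives no check of their labels, while reads on the floxed exons alone were not analysed here. "KO" below means the libraries labelled so.

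None of the 5 tested members passed an adjusted p of 0.05 in limma (Benjamini-Hochberg over 11363 genes), a threshold that 0.106% of all tested genes passed, so that missing it does not show that a member was equal between the groups. At an unadjusted p under 0.05, 1 member (Srebf2) was lower in KO and 0 were higher, where 4.46% of all genes were lower and 2.86% were higher. The groups did not overlap for 1 member with KO higher (Hmgcs1) and 1 with KO lower (Srebf2), shares of the tested members close to the 20.1% and 20.3% of all genes. The median log2 difference, KO minus WT, over the 8 members was 0.22, beside 0.00026 over all genes tested, whose middle 50% lay between -0.52 and 0.47. The members' median was 0.031 without WT replicate 1, 0.095 without KO replicate 2, 0.14 without KO replicate 1 and 0.023 with a trend in GC and length removed. With that trend removed, the median over the coding genes tested was 0.041. All differences here are on the log2(RPKM + 1) scale, so those of genes with few reads come out too small.

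**Figure D1:**
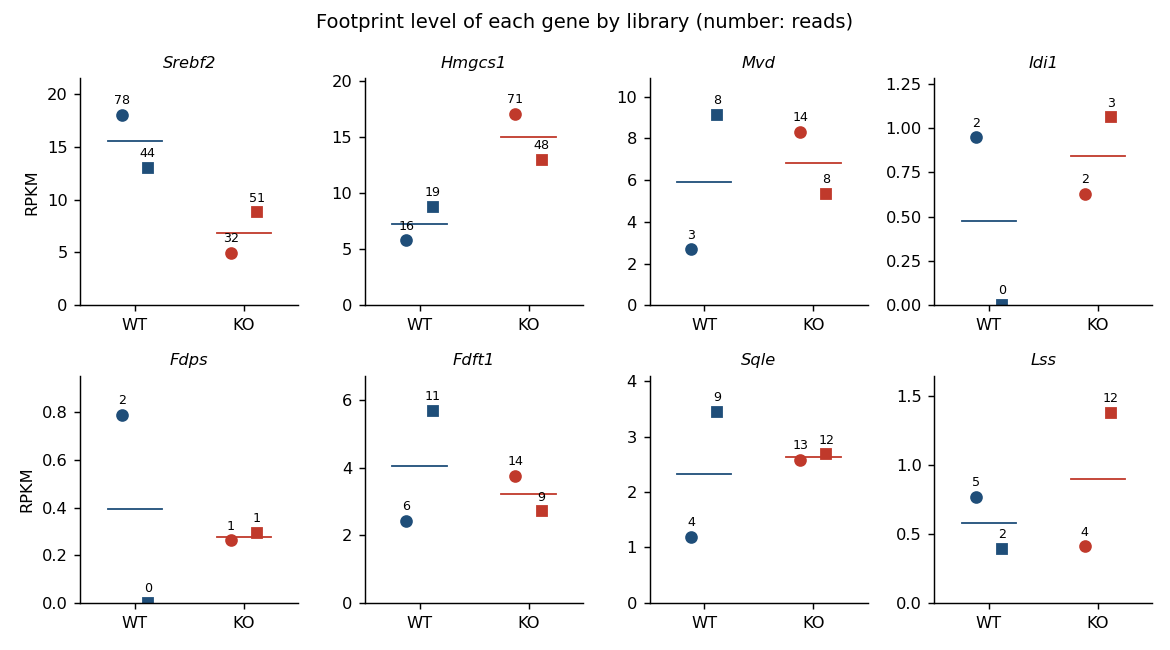
Footprint level of each of the 8 genes in RPKM (vertical axis, from 0, scaled for each gene) in WT (blue) and KO (red). Circles are replicate 1, squares replicate 2, horizontal lines the group means, and the number at each point is its read count. Srebf2 is lower in both KO libraries and Hmgcs1 higher, while the groups of the other 6 genes overlap.

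Srebf2, the regulator, was among the 2 members with the most reads. It lies on chromosome 15 at 82147181 to 82205379 (GRCm38, + strand, ENSMUSG00000022463). Its level was 18.0 and 13.0 RPKM in WT replicates 1 and 2, from 78 and 44 reads, and 4.91 and 8.79 RPKM in KO replicates 1 and 2, from 32 and 51 reads. Both KO values were below both WT values. The means were 15.5 ± 3.54 RPKM in WT and 6.85 ± 2.74 in KO (SD, n = 2 each), with WT 2.26 times KO. The log2 difference was -1.10 (SE 0.44, 95% interval -2.18 to -0.02, limma adjusted p = 0.672), and 10.6% of tested genes had a lower value. The interval ended just below 0, so that Srebf2 was past the unadjusted threshold of 0.05, but not once a trend in GC and length was removed. The unadjusted p also rose above 0.05 whichever of the 4 libraries was left out, and the difference was smallest in those fits without KO replicate 1, at -0.74.

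The difference in Srebf2 also depended on how libraries were scaled. The deposited values are scaled so that the typical gene is equal between libraries. Scaled to total reads instead, the median of all genes moved by 0.50 towards KO and Srebf2 was at -0.55, which is 1.05 below the median gene (limma adjusted p = 0.548, against a range of 0.312 to 0.944 over its 14 alternatives). On that scale the groups of Srebf2 overlapped, since KO replicate 2 had more Srebf2 reads than WT replicate 2. Groups that did not overlap were then found with KO higher for 41.8% and with KO lower for 7.55% of all genes. Among the tested members Hmgcs1 and Sqle had KO higher there and 0 had KO lower. On that scale Srebf2 did not pass the unadjusted threshold and Hmgcs1 did.

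Hmgcs1, the first enzyme among the members, had higher values in KO. It lies on chromosome 13 at 119690379 to 119708260 (+ strand, ENSMUSG00000093930). It had 5.78 and 8.78 RPKM in WT replicates 1 and 2, from 16 and 19 reads, and 17.0 and 12.9 RPKM in KO replicates 1 and 2, from 71 and 48 reads. Both KO values were above both WT values. The counts are small, with a counting interval of 11.4 to 29.7 reads for WT replicate 2 and of 35.4 to 63.6 for KO replicate 2 (95%, exact Poisson, counting error only), and these libraries differ in their scaling. The means were 7.28 ± 2.12 RPKM in WT and 15.0 ± 2.90 in KO (SD, n = 2 each), a ratio of 2.06. The log2 difference was 0.96 (SE 0.41, 95% interval -0.04 to 1.96, limma adjusted p = 0.675), and 91.2% of tested genes had a lower value. The interval reached 0, so that Hmgcs1 did not pass the unadjusted threshold. The log2 difference was past that threshold at a minimum of 5 RPKM, with coding genes only, with voom and on total reads. In the other alternatives that used all 4 libraries the log2 difference was not past the threshold. On total reads it was 1.52, which is 1.03 above the median gene (95% interval 0.58 to 2.47, limma adjusted p = 0.290, the lowest of a range up to 0.944 over its 14 alternatives). Its sign, like that of Srebf2, was the same in all 14 alternatives.

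The ratio of Hmgcs1 to Srebf2 reads does not depend on how libraries are scaled. It was 0.205 and 0.432 in WT replicates 1 and 2 and 2.22 and 0.941 in KO replicates 1 and 2. Srebf2 thus had more reads than Hmgcs1 in both WT libraries and in KO replicate 2, and fewer in KO replicate 1. The log2 ratio was higher in KO by 2.28 and the groups did not overlap, with an exact permutation p = 0.33 (two-sided, n = 2 each), the smallest that 2 libraries against 2 can give. With each library left out in turn the difference was between 1.66 and 2.90. This pair was chosen after its values were seen, as the members at the 2 ends of the range.

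**Figure D2:**
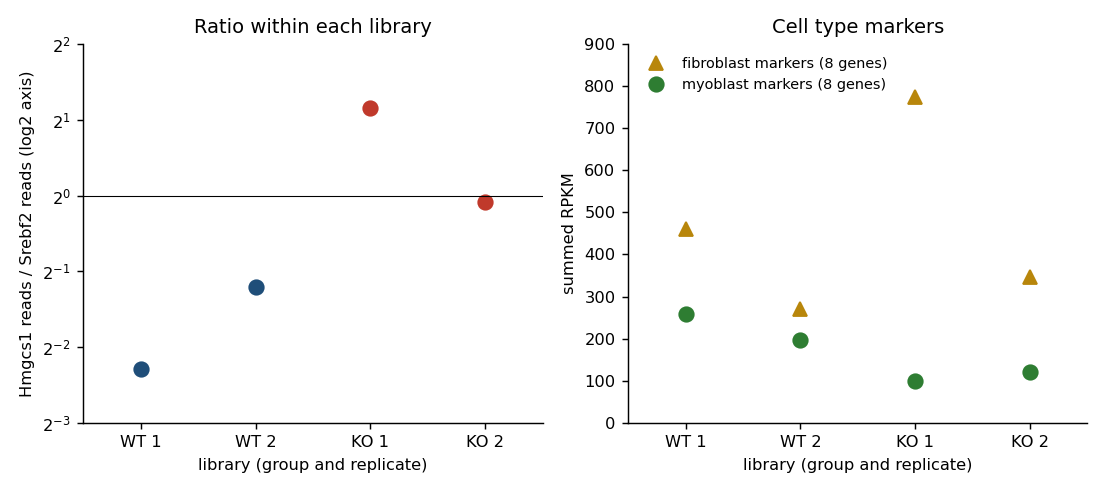
Left: Hmgcs1 reads divided by Srebf2 reads (log2 axis) in each library, WT blue and KO red, with a line at equal reads. Right: summed RPKM of 8 myoblast markers (green circles) and 8 fibroblast markers (gold triangles) in the same libraries. The ratio is 0.205 and 0.432 in WT and 2.22 and 0.941 in KO, and the myoblast sum is lower in both KO libraries.

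Summed over the members, these opposite differences were no longer seen. The 8 genes together had 32.6 and 40.4 RPKM in WT replicates 1 and 2 and 37.9 and 35.2 in KO replicates 1 and 2. The group means were 36.5 ± 5.54 and 36.5 ± 1.92 (SD, n = 2 each), a difference of 0.027 (exact permutation p = 1, two-sided). The sum depended on the scaling, with a difference, KO minus WT, of 16.3 on total reads and of -6.01 on protein-coding reads, and its sign on which library was left out, with -3.89 without WT replicate 1, 3.95 without WT replicate 2, and values between these without either KO library. Srebf2 made up 67.2% and 47.3% of the members' reads in WT and 21.2% and 35.4% in KO, and Hmgcs1 13.8% and 20.4% in WT and 47.0% and 33.3% in KO. Of all protein-coding reads the members took 0.0431% and 0.0427% in WT and 0.0328% and 0.0374% in KO.

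The members between Hmgcs1 and squalene were read thinly. Mvd encodes mevalonate diphosphate decarboxylase and lies on chromosome 8 at 122433601 to 122443422 (- strand). It had 2.68 and 9.13 RPKM in WT replicates 1 and 2 (3 and 8 reads) and 8.30 and 5.33 in KO replicates 1 and 2 (14 and 8 reads). Both KO values lay between the WT values, and the log2 difference was 0.33 (95% interval -1.09 to 1.75, limma adjusted p = 0.861). The low value in WT replicate 1 rests on 3 reads, for which the counting interval is 0.619 to 8.77 reads, and without that library the log2 difference was -0.40.

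Idi1, the isomerase that makes dimethylallyl diphosphate, and Fdps, farnesyl diphosphate synthase, never had more than 3 reads in a library, the floor below which a level was not told from 0. For Idi1 (chromosome 13, 8885501 to 8892451, + strand) 2 and 0 reads were found in WT against 2 and 3 in KO. For Fdps (chromosome 3, 89093588 to 89101959, - strand) 2 and 0 were found in WT against 1 and 1 in KO. No fold can be given for either, and a difference was not detectable at counts this low. Whether depth or, for Fdps, the bases shared with another gene described below set these counts was not tested. In WT replicate 2 the floor was 1.82 RPKM for Idi1 and 1.51 RPKM for Fdps.

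The members from squalene synthesis onward were no clearer. Fdft1, squalene synthase (chromosome 14, 63145150 to 63179578, - strand), had 2.42 and 5.67 RPKM in WT replicates 1 and 2 (6 and 11 reads) and 3.75 and 2.71 in KO replicates 1 and 2 (14 and 9 reads). Its groups overlapped, with a log2 difference of -0.19 (95% interval -1.35 to 0.97, limma adjusted p = 0.910). Sqle, squalene epoxidase (chromosome 15, 59315077 to 59331192, + strand), had 1.20 and 3.44 RPKM in WT (4 and 9 reads) and 2.58 and 2.68 in KO (13 and 12 reads), with a log2 difference of 0.22 (95% interval -1.03 to 1.46, limma adjusted p = 0.902). The KO libraries were close to each other and lay between the WT libraries. Lss, lanosterol synthase (chromosome 10, 76531588 to 76557138, + strand), had 0.769 and 0.394 RPKM in WT (5 and 2 reads) and 0.409 and 1.38 in KO (4 and 12 reads) and was below the level for testing. Its highest value was in KO replicate 2 and the other 3 libraries were within 0.394 to 0.769 RPKM. The value in WT replicate 2 lay under the floor of 3 reads, which is 0.590 RPKM for Lss there, and was not told from 0. The intervals of Mvd, Fdft1 and Sqle each held a log2 difference of 0.96, that of Hmgcs1, so these data do not show that they differ from it, and that difference was not tested.

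WT replicate 1 was the lowest library for Mvd, Fdft1 and Sqle. Without it the log2 differences of Mvd, Fdft1 and Sqle were -0.40, -0.67 and -0.29, and without WT replicate 2 they were 1.06, 0.30 and 0.73. The direction of these 3 enzymes was therefore set by which WT library was used.

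**Figure D3:**
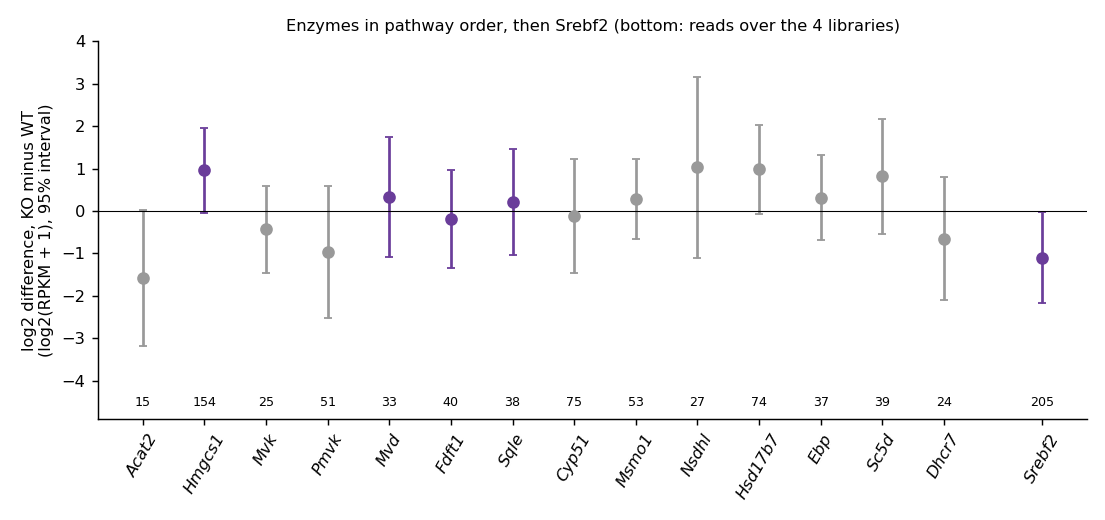
Log2 difference, KO minus WT, on the log2(RPKM + 1) scale with its 95% interval from limma for tested sterol synthesis enzymes in pathway order and, at the right, Srebf2. Members are purple, other enzymes grey, and the number under each is its reads over the 4 libraries. Among the members, the interval of Srebf2 (-2.18 to -0.02) is the one that does not reach 0.

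The order of the levels depended on the length used. By RPKM over the deposited gene length the means over the 4 libraries were 11.2 ± 5.63 for Srebf2, 11.1 ± 4.91 for Hmgcs1, 6.36 ± 2.95 for Mvd, 3.64 ± 1.47 for Fdft1, 2.48 ± 0.936 for Sqle, 0.737 ± 0.461 for Lss, 0.659 ± 0.476 for Idi1 and 0.336 ± 0.329 for Fdps (SD, n = 4). Within libraries Srebf2 was above Hmgcs1 in 2 of 4, namely in both WT libraries and in neither KO library, so that these means pool groups of opposite order (15.5 against 7.28 RPKM in WT and 6.85 against 15.0 in KO). Those neighbours did not differ beyond their spread over the 4 libraries, nor did Lss and Idi1. Mvd was above Fdft1, Fdft1 above Sqle and Sqle above Lss in 4 of 4. Hmgcs1 was above Mvd in 3 of 4. Idi1 and Fdps, never above the floor, are given no order.

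Ribosomes cover the coding sequence, which was 64.7% of the deposited length of Mvd, 47.2% of that of Srebf2 and 20.4% of that of Lss. Per kilobase of coding sequence, a scale added after the data had been seen, Hmgcs1 came first at 32.8 ± 14.5, followed by Srebf2 at 23.7 ± 11.9, and then by Fdft1, by Mvd at 9.83 ± 4.56 and by Sqle (SD, n = 4). These means again pool groups of opposite order, since Srebf2 was above Hmgcs1 in both WT libraries and below it in both KO libraries. Lss, Idi1 and Fdps were at 3.62 ± 2.26, 2.72 ± 1.96 and 1.34 ± 1.31. On this scale Sqle above Lss was the pair of neighbours in the same order in 4 of 4 libraries, and the other neighbours above the floor changed places in at least 1.

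**Figure D4:**
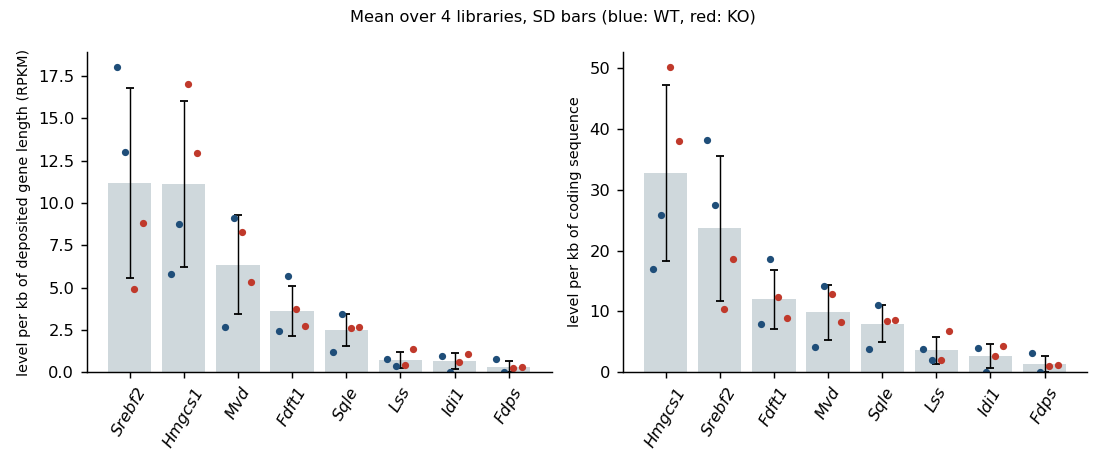
Mean level of each gene over the 4 libraries (bars, from 0) with SD (error bars) and the libraries as points, WT blue and KO red, per kilobase of deposited gene length in RPKM (left) and per kilobase of coding sequence (right). Srebf2 (11.2) and Hmgcs1 (11.1) are level on the left, and on the right Hmgcs1 (32.8) and Srebf2 (23.7) overlap in their spread.

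Features of the sequences differed among the members. The GC content of the coding sequence was 58.7% in Srebf2 and 59.7% in Mvd, both in decile 9 of the tested coding genes ranked by GC, where the median log2 difference was -0.25. It was 47.1% in Hmgcs1, in decile 2, where the median was 0.29, and 42.5% to 55.4% in the other 5. GC content thus moved with the difference between the groups over all genes. As an alternative, a smooth trend in coding GC and length together was removed. The part of GC alone was not measured, and any group difference that goes with GC or length is removed as well. The log2 difference of Srebf2 was then -0.74 (95% interval -1.65 to 0.18) and that of Hmgcs1 0.72 (95% interval -0.13 to 1.57). Both kept their sign, neither passed an unadjusted p of 0.05 in limma, and the median over the 8 members was 0.023. The median over the coding genes tested on that scale was 0.041, so that of the members did not exceed it.

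eIF5A is known for helping ribosomes through runs of prolines. None of the 8 proteins has 3 or more prolines in a row, where 19.9% of the coding genes with a complete sequence (4320 of 21659) do. The longest run was 2 in Mvd, Fdps, Sqle and Srebf2, with 5 such runs in Srebf2, and 1 in the other 4.

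Some members share exon bases with another gene, and reads there can be counted to neither or to either, depending on settings that the sources used here do not state. Fdps shares 85.9% of its coding bases with Gm43738 on the same strand, which had 0 reads in all 4 libraries. Hmgcs1 shares 35.1% and Lss 8.46% of their coding bases with the antisense genes Gm48342 and 4930483K19Rik, both at 0 reads in all 4 libraries. Fdft1 shares 774 exon bases, none of them coding, with the antisense gene Ctsb, which had 314 to 800 reads. Idi1 shares 323 exon bases, none of them coding, with the antisense gene Gm48574, at 0 reads in all 4 libraries. The levels of Fdps, Hmgcs1, Lss, Idi1 and Fdft1 are uncertain for this reason, and Fdft1, with 6 to 14 reads, is the one whose neighbour has reads. Srebf2 shares no exon bases with another gene, but the microRNA gene Mir33 lies inside its introns and had 0 or 1 read in each library.

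A further 11 enzymes of sterol synthesis gave values in both directions. Of 10 tested, 0 passed the adjusted or the unadjusted threshold, and the median log2 difference was -0.12 over the 11 and 0.085 over the 10 tested, opposite in sign. The median over the 11 turned positive without KO replicate 2 (0.40) and without WT replicate 2 (0.21). On total reads it was 0.41, but there the median of all genes was 0.50, so the list stayed below it. Groups did not overlap for 6 of the 10 tested, with 3 higher in KO and 3 lower, beside 20.1% and 20.3% of all tested genes. Those higher were Msmo1, Hsd17b7 and Sc5d, at log2 differences of 0.29, 0.98 and 0.82. Those lower were Acat2, which makes acetoacetyl-CoA, and Mvk, mevalonate kinase, at -1.58 and -0.44, and Dhcr7, a late reductase, at -0.65. Other late enzymes overlapped between the groups, among them Cyp51 at -0.12 and Nsdhl at 1.03. The 6 without overlap were picked with their values in view and rest on 15 to 74 reads each over the 4 libraries. By the rule for named genes, which takes the extremes among genes of at least 5 RPKM, the highest difference was that of Ebp, a late isomerase, with 3.59 and 6.43 RPKM in WT and 6.68 and 5.90 in KO (log2 difference 0.32). The lowest was that of Pmvk, phosphomevalonate kinase, with 8.72 and 24.8 RPKM in WT and 4.51 and 10.8 in KO (log2 difference -0.97). Both overlapped between the groups.

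The genes that control SREBP gave values on both sides of 0. All 10 were tested, 0 passed either threshold, and the median log2 difference was -0.078, which turned to 0.06 without KO replicate 1 and to 0.03 without WT replicate 1. Without overlap, KO was higher for Mbtps2, a protease that cuts SREBP, at 0.50 (95% interval -1.03 to 2.03). KO was lower without overlap for Insig2, which holds SREBP in the endoplasmic reticulum, at -0.80 (95% interval -1.89 to 0.28), and for Scap, the SREBP escort, at -0.47 (95% interval -1.50 to 0.56). These 3 were likewise named with their values in view, and 1 and 2 of 10 do not exceed the 20.1% and 20.3% of all tested genes. Srebf1, the relative of Srebf2 that favours fatty acid genes, had 8.83 and 8.29 RPKM in WT and 8.61 and 9.89 in KO, a log2 difference of 0.10 (95% interval -0.79 to 0.99). The lowest difference by the rule was that of Aup1, a factor of endoplasmic reticulum protein degradation, at -0.21 (95% interval -1.17 to 0.76). The difference between Srebf2 and Srebf1 was not tested.

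Fatty acid synthesis is also driven by SREBP factors. Of 12 genes 10 were tested, and 1 (Mid1ip1, lower in KO) passed the unadjusted threshold, beside 4.46% of all genes lower and 2.86% higher. Among the tested genes KO was higher without overlap for 1 (Fasn) and lower for 3 (Mid1ip1, Scd1 and Scd2), shares to be read beside the 20.1% and 20.3% of all tested genes. The untested Acss2 and Acaca also had KO higher. The median log2 difference was 0.16 over the 12 and 0.026 over the 10 tested, and that over the 12 was -0.03 without WT replicate 1. Mid1ip1, an activator of acetyl-CoA carboxylase, had 10.9 and 7.98 RPKM in WT replicates 1 and 2 and 2.59 and 2.33 in KO replicates 1 and 2. Both KO values were below both WT values, from 14, 8, 5 and 4 reads, and the log2 difference was -1.58 (SE 0.37, 95% interval -2.49 to -0.67, limma adjusted p = 0.554). Fasn, fatty acid synthase and the deepest read of those named, had 10.0 and 12.02 RPKM in WT and 14.3 and 13.2 in KO, from 62 to 142 reads a library. Its groups did not overlap, at a log2 difference of 0.30 (95% interval -0.61 to 1.22, limma adjusted p = 0.799).

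The branch that leads from farnesyl diphosphate to prenylated proteins, dolichol and coenzyme Q gave 0 genes past either threshold among 9 tested of 11, 0 of the tested genes with KO higher and 1 (Nus1) with KO lower without overlap, and a median log2 difference of 0.13 over the 11 and over the 9 tested. The untested Pdss1 had KO higher, from 12 reads in all, and the median over the 11 was -0.04 with the GC and length trend removed. Its named genes encode both subunits of the enzyme that builds the dolichol chain, Dhdds at 0.32 (95% interval -0.74 to 1.38) and Nus1 at -0.51 (95% interval -1.48 to 0.45). The transport and storage of cholesterol gave 0 past either threshold among 11 tested of 12, 1 of the tested genes with KO higher (Npc1) and 1 with KO lower (Abcg1) without overlap, and a median of 0.21 over the 12 and 0.19 over the 11 tested. Without WT replicate 1 the median over the 12 was -0.04. In neither list did the share without overlap exceed the 20.1% and 20.3% of all tested genes. Lipa, the lysosomal lipase that frees cholesterol from its esters, was at 0.72 (95% interval -0.88 to 2.32), and Nr1h2, an oxysterol receptor, at -0.55 (95% interval -1.86 to 0.77). On total reads the medians of all 5 lists lay between 0.41 and 0.72, beside 0.50 for all genes.

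**Figure D5:**
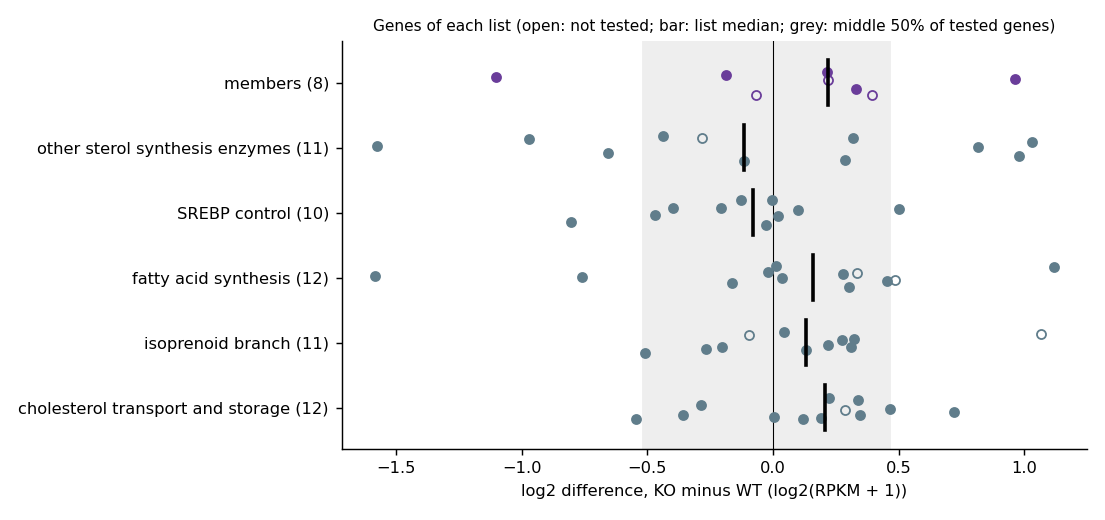
Log2 difference, KO minus WT, on the log2(RPKM + 1) scale for each gene (points, open where not tested) of the members and of 5 other lists, with the list median (black bar). The grey band holds the middle 50% of all tested genes, -0.52 to 0.47, and each list median lies inside it.

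The genes whose profile was most like that of the members were Snx3, Hnrnpul2, Ets1, Sars and Fkbp9. Likeness was the mean absolute distance, over the 4 libraries, of a gene's log2(RPKM + 1) centred on its own mean from the members' median centred profile, which was -0.16 in WT replicate 1 and 0.06 in each of the other 3. The distances were 0.012 to 0.0563, among 1145 coding genes with at least 20 RPKM. The profile, a median over 8 genes of which 6 had 40 reads or fewer, was nearly flat, and neither Srebf2 nor Hmgcs1 follows it.

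Markers of the cells in the cultures also differed between the libraries. All 8 myoblast markers had reads, and their summed level was 258.6 and 196.8 RPKM in WT replicates 1 and 2 and 99.7 and 119.9 in KO replicates 1 and 2, with 5 of the 8 lower in KO without overlap, beside 20.3% of all tested genes lower and 20.1% higher. The 8 fibroblast markers all had reads too, summing to 460.8 and 270.5 RPKM in WT and 775.1 and 345.7 in KO, with 3 higher and 1 lower in KO without overlap. The 6 endothelial markers summed to 117.0 and 106.7 RPKM in WT and 150.2 and 123.5 in KO, with 5 higher in KO without overlap. The fibroblast and endothelial sums were highest in KO replicate 1, which also had the highest Hmgcs1 and the lowest Srebf2 level. The next highest fibroblast sum was in WT replicate 1, which had the lowest Hmgcs1 (5.78 RPKM) and the highest Srebf2 level (18.0 RPKM). All 6 immune markers had reads, summing to 45.7 to 60.6 RPKM, with 3 higher and 2 lower in KO without overlap. The 6 smooth muscle and glial markers had reads too, summing to 78.8 to 146.9 RPKM, with 2 lower in KO. Of the 6 adipocyte markers Lep was at 0, and 3 with Lep included never passed the floor of 3 reads in a library. Their sum was 10.8 to 37.0 RPKM, with 1 lower in KO. In such bulk samples fewer cells of a type and less RNA per cell cannot be told apart, and the part of these markers in the values of Hmgcs1 and Srebf2 was not tested.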

How the data were processed

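Ribo-seq libraries of primary myoblasts (2 WT, 2 KO) were grouped by their labels. The authors removed low-quality, adapter, rRNA and tRNA reads, aligned the rest with TopHat2 to mm10 (GRCm38) and counted them per Ensembl gene with HTSeq. Strand settings and the treatment of reads with several matches are not given in the sources used here. The deposited values were RPKM. Multiplied by gene length, 100% of them were whole reads within 0.01, and the denominator of each library was its median-of-ratios size factor times the geometric mean of the totals. A floor of 3 reads was used. Libraries without molecular identifiers give intervals and floors that cover counting error only.

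Log2(RPKM + 1) was tested with limma 3.58.1 (lmFit, eBayes with trend, R 4.3.3) on the 11363 genes with a mean of at least 1 RPKM, with group as the only term, two-sided, and Benjamini-Hochberg adjustment. Exact permutation tests used scipy 1.17.1. Coding sequences were the longest complete ones of GENCODE vM21, which has all 8 members at the same span. The fits were tested on simulated data with log2 changes of 2 and 3, of which 92% and 100% were recovered at the unadjusted threshold and 0% at the adjusted one. These changes were larger than that of any member and were planted in genes with more reads than most members. The simulation therefore does not tell how well differences of the members' size would be recovered. The 8 members and the lists (other sterol enzymes, SREBP control, fatty acid synthesis, isoprenoid branch, cholesterol transport and storage, cell type markers) were chosen with earlier results of these data known. One enzyme of the first list is not reported here and was left out of its counts and median. Named genes were the members, Eif5a, the largest increase and decrease of each pathway list among genes of at least 5 RPKM, and the 5 genes of most like profile. Alternatives were a pseudocount of 0.1, no filter, a minimum of 5 RPKM, coding genes only, scaling to total or protein-coding reads, removal of a GC and length trend, voom (limma) on the recovered reads, a replicate block, and leaving out each library. Levels per coding kilobase and the Hmgcs1 to Srebf2 ratio were added after the data had been seen.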

Additional observations from a re-analysis of the deposited data

How the results depend on the processing

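No member passed an adjusted p of 0.05 in limma in any of the 14 alternatives, which says nothing about stability, since a design of this size hardly passes that threshold. Hmgcs1 kept its sign in all of them (0.70 to 1.52), as did Srebf2 (-1.46 to -0.55), and the members' median was between 0.023 and 0.52. The count past an unadjusted p of 0.05 was 0 after removing the trend in GC and length, 0 with a replicate block, 0 with both, 2 at a minimum of 5 RPKM, 2 with coding genes only and 2 with voom, and 0 with each library left out in turn. It stayed at 1 on total reads, but for Hmgcs1 in place of Srebf2. With the replicate block the interval was -2.28 to 0.08 for Srebf2 and -0.15 to 2.07 for Hmgcs1, and 0 genes of all passed the adjusted threshold, against 12 without it and 79 with voom. Deviations of same-numbered libraries correlated at 0.0845 over 5514 genes. With 2 libraries in each group this is a single value, and counting error pulls it towards 0. It cannot show whether same-numbered libraries share a mouse, culture or day, which the labels do not state. Members without overlap were 2 to 8 with a library left out, since 1 library then stands for its group and is assumed to vary like the other. Fdft1 turned to 0.30 on total reads, where the median of all genes was 0.50. Against that median it was at -0.20, close to its main value of -0.19. With a library left out Fdft1 was between -0.67 and 0.30, Mvd between -0.40 and 1.06 and Sqle between -0.29 and 0.73. The summed members differed by 16.3 RPKM on total reads and by -6.01 on protein-coding reads. Fdft1 and Sqle could not be fitted at a minimum of 5 RPKM, which their means do not reach. Low counts limit the rest: 6 members had 40 reads or fewer over the 4 libraries, and Idi1 and Fdps never passed 3 in a library.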
